A study of Mus musculus with 12 samples.

Results

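This report follows 8 genes of the Wnt pathway in the left ventricle of mice under pressure overload. They are 4 secreted frizzled-related proteins (Frzb, Sfrp1, Sfrp2 and Sfrp4), the dickkopf protein Dkk3, the ligand Wnt5a, and the frizzled receptors Fzd1 and Fzd2. The genes were chosen by symbol, through their NCBI Gene IDs, from the 18079 genes of the deposited expression table. All 8 had a row, and 7 of them passed the filter on low values, at least 1 FPKM in at least 3 of the 12 libraries. None of the 7 passed through a single group, since each had at least 5 libraries at that level outside any group. FPKM (fragments per kilobase of transcript, scaled to the mapped fragments of the library) is corrected for transcript length, so levels of different genes can be set side by side.

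The study asked whether hispidulin, a plant flavone, acts on the heart's response to aortic banding (AB), a surgical narrowing of the aorta that raises the load on the left ventricle. Male C57BL/6 mice (C57BL/6J in the study's methods) had AB or a Sham operation at 8 weeks of age, and left ventricular muscle was taken 4 weeks later, at 12 weeks. From 1 day before the operation until harvest they received hispidulin by intraperitoneal injection at 20 mg/kg/day, or its solvent DMSO alone. This gave 4 groups of 3 mice (Hispidulin+AB, DMSO+AB, Hispidulin+Sham and DMSO+Sham), with 1 library from each mouse, and no mouse carried an engineered allele.

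Wnt proteins are secreted ligands that bind frizzled receptors. With the co-receptors Lrp5 and Lrp6 they stabilise beta-catenin, which then drives target genes such as Axin2, while ligands such as Wnt5a mostly act through branches that do not need beta-catenin. Secreted frizzled-related proteins carry a frizzled-like domain and bind Wnt ligands outside the cell. In the adult heart the pathway is known for its part in fibroblast activation and scar formation.

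The 250 bases before the transcription start are shown for Frzb, Sfrp2 and Fzd1, whose levels varied together over the 12 mice as described further on. These 3 were the genes among the 8 with a promoter in the RefSeq table used here, of build GRCm38.p6. Each is given 5′ to 3′ on the strand of the gene, in lower case. Capitals mark a match, on either strand, to any of 4 motifs that were searched by their letters, namely TCF/LEF (CTTTGAT), the TATA box (TATAAA), TEAD (GGAATG) and AP-1 (TGANTCA). No matches overlapped in the windows shown.
Frzb, chr2:80447397-80447646, minus strand: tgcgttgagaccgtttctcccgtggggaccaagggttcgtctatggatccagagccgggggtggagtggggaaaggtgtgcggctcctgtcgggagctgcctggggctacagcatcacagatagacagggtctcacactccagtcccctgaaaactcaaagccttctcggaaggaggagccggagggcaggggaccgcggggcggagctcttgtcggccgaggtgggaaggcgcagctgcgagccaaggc
Sfrp2, chr3:83766071-83766320, plus strand: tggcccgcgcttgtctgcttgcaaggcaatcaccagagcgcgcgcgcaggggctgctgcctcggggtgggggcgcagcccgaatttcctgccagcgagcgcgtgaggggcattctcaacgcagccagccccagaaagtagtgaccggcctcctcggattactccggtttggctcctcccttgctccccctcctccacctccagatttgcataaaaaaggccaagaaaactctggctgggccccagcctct
Fzd1, chr5:4758217-4758466, minus strand: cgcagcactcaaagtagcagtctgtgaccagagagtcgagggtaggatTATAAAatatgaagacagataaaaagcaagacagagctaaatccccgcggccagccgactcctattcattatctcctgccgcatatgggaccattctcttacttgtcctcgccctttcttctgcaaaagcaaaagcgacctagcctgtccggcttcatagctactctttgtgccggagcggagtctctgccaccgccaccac
The one match, TATAAA in the Fzd1 window, begins 202 bases before the start. That motif is found in 12.4% of the 32851 promoter windows of the same length, TCF/LEF in 3.21%, TEAD in 12.6% and AP-1 in 6.75%. The GC content was 64.4% in the Frzb window, 63.6% in the Sfrp2 window and 51.2% in the Fzd1 window, against a median of 52.4% over all windows. The Frzb and Sfrp2 windows held 16 CpG dinucleotides each and the Fzd1 window held 12.

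Some features of the libraries bear on what follows. The atrial genes Myl7, Myl4 and Sln were high in Hispidulin+Sham mouse 3, DMSO+AB mouse 2 and Hispidulin+AB mouse 3. There Myl7 reached 333, 67.5 and 42.3 FPKM, against at most 15.03 in the other 9 libraries. Stard10, another atrial marker, was high in Hispidulin+Sham mouse 3 only, at 43.59 FPKM. It was at 12.43 in DMSO+AB mouse 2 and 15.68 in Hispidulin+AB mouse 3, each the lowest of its group. All 12 libraries held ventricular muscle, with the ventricular light chain Myl2 between 11178 and 16920 FPKM. DMSO+AB mouse 1 had low levels of activated fibroblast genes beside the other DMSO+AB mice, with Cilp at 6.79 FPKM against 84.09 and 76.22. Read depth is unknown, because the files hold no counts.

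In DMSO-treated mice, AB was accompanied by a rise of Frzb, a secreted Wnt binder, and of Fzd1, a Wnt receptor. Mean Frzb was 3.92 times and mean Fzd1 2.17 times the DMSO+Sham level. In whole ventricular muscle, more cells of a type and more RNA per cell cannot be told apart. These were the 2 genes of the 7 tested with an adjusted p under 0.05 (limma on log2(FPKM + 1), Benjamini-Hochberg adjustment over all 11664 genes tested), where the same rule called 5.21% of all genes. Sfrp2 had the largest difference in means, at 6.81 times, but its 3 DMSO+AB mice were too far apart for it to pass. In the hispidulin comparisons no gene of the 7 passed.

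**Figure D1:**
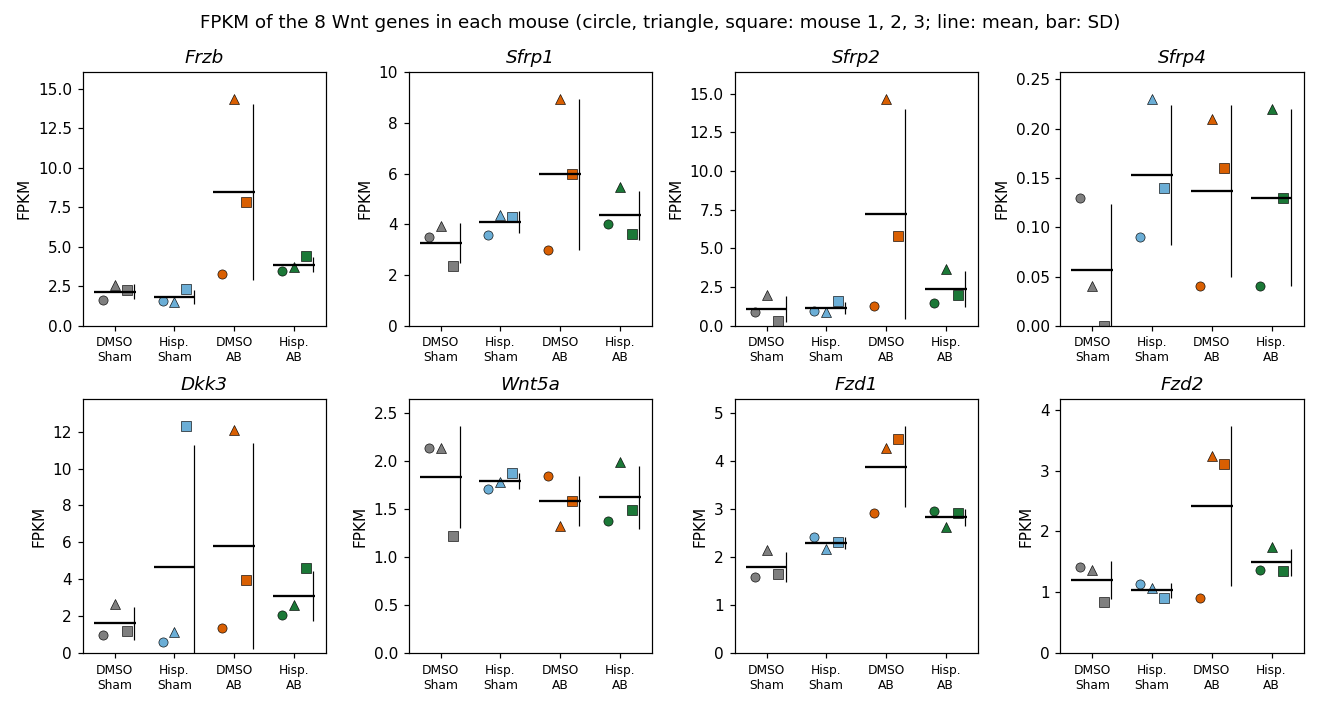
FPKM (vertical axis, from 0, a scale for each gene) of the 8 genes in each of the 4 groups, with a circle, triangle and square for mouse 1, 2 and 3, the mean as a line and the SD, clipped at 0, as a bar. Frzb and Fzd1 in the DMSO+AB mice lie above every DMSO+Sham mouse, and DMSO+AB mouse 1 is the lowest of its group for every gene plotted except Wnt5a.

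Frzb (Gene ID 20378), also known as sFRP3, is known as a Wnt antagonist of developing cartilage. Its FPKM was 1.65, 2.56 and 2.29 in the DMSO+Sham mice and 1.59, 1.5 and 2.31 in the Hispidulin+Sham mice. After AB it was 3.28, 14.36 and 7.83 with DMSO and 3.45, 3.75 and 4.39 with hispidulin. Every AB mouse was thus above every Sham mouse, while the Sham groups overlapped each other and the AB groups overlapped each other. The group means were 1.80 ± 0.444 in Hispidulin+Sham, 2.17 ± 0.467 in DMSO+Sham, 3.86 ± 0.480 in Hispidulin+AB and 8.49 ± 5.57 in DMSO+AB (SD, n = 3). The difference between DMSO+AB and DMSO+Sham was 1.41 on the log2(FPKM + 1) scale (SE 0.34, adjusted p = 0.0373), a scale that understates the change of genes at such low levels. The two-sided exact permutation p was 0.1, the smallest that 3 against 3 can give.

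The Frzb difference kept its direction but not its call when single mice were left out. Without DMSO+AB mouse 2 the difference was 0.97 (adjusted p = 0.103), and it was 1.29 (adjusted p = 0.134) without DMSO+Sham mouse 1, 1.44 (adjusted p = 0.062) without DMSO+Sham mouse 3 and 1.37 (adjusted p = 0.107) without DMSO+AB mouse 3. It was called without DMSO+AB mouse 1, the lowest of its group (1.89, adjusted p = 0.00121), and without DMSO+Sham mouse 2. The first digit of the animal numbers, which the labels do not explain, split the mice into series. Within series 5 (1 mouse against 1) the Frzb difference was 1.31 and within series 6 (2 against 1) it was 1.30, with DMSO+Sham mouse 1 alone in a series of its own. With the series as a term of the fit Frzb was not called (1.29, adjusted p = 0.138).

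Sfrp1 (Gene ID 20377), a broad extracellular Wnt binder, was the most abundant of the 8 genes in every Sham mouse except Hispidulin+Sham mouse 3, where Dkk3 was higher. It stood at 3.52, 3.92 and 2.38 FPKM in DMSO+Sham and at 3.58, 4.39 and 4.30 in Hispidulin+Sham. The DMSO+AB mice had 3.01, 8.94 and 5.98 FPKM, and the Hispidulin+AB mice 4.02, 5.47 and 3.63. Mice 2 and 3 of DMSO+AB were higher than all DMSO+Sham mice and mouse 1 lay within their range, so the groups overlapped. The difference under AB with DMSO was 0.63 (SE 0.27, adjusted p = 0.217) and the exact permutation p was 0.3. Without DMSO+AB mouse 1 it was 0.98 (adjusted p = 0.0181), and without DMSO+AB mouse 2 it was 0.33 (adjusted p = 0.519).

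Sfrp2 (Gene ID 20319), a secreted protein that fibroblasts release and that takes part in collagen processing, was at 0.89, 1.98 and 0.32 FPKM in DMSO+Sham and at 0.96, 0.90 and 1.60 in Hispidulin+Sham. It was at 1.27, 14.66 and 5.78 FPKM in DMSO+AB and at 1.45, 3.67 and 1.97 in Hispidulin+AB. Again mice 2 and 3 of DMSO+AB stood far above the Sham mice, and mouse 1 lay among them. The mean was 7.24 ± 6.81 in DMSO+AB and 1.06 ± 0.843 in DMSO+Sham (SD, n = 3). The difference of 1.67 (SE 0.55) had an adjusted p of 0.105 and an exact permutation p of 0.2. It was 2.4 (adjusted p = 0.006) without DMSO+AB mouse 1 and 1.01 without DMSO+AB mouse 2.

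Sfrp4 (Gene ID 20379), which is linked to phosphate handling and adipose tissue, was close to absent from the table. It ranged from 0.00 to 0.13 FPKM in DMSO+Sham, from 0.09 to 0.23 in Hispidulin+Sham, from 0.04 to 0.21 in DMSO+AB and from 0.04 to 0.22 in Hispidulin+AB. All 4 groups overlapped. It did not pass the filter, and with no counts a change at this level was not detectable.

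Summed over the family, Sfrp5 included, secreted frizzled-related transcripts came to 6.77, 10.3 and 5.59 FPKM in DMSO+Sham and to 6.46, 8.05 and 9.51 in Hispidulin+Sham. The sums were 7.81, 38.4 and 19.8 FPKM in DMSO+AB and 9.70, 13.6 and 11.5 in Hispidulin+AB. The range within DMSO+AB was thus wider than that of the other 9 mice together. Sfrp1 made up 44.2% ± 7.18 of the sum in DMSO+Sham and 30.7% ± 7.61 in DMSO+AB, and Frzb 30.1% ± 9.47 and 39.6% ± 2.35 (SD, n = 3). The Sfrp2 share was 12.6% ± 6.70 in DMSO+Sham and 27.9% ± 11 in DMSO+AB, and the Sfrp5 share 12.4% ± 4.83 and 1.26% ± 1.26. The Sfrp5 shares of the DMSO+AB mice, at most 2.69%, all lay below those of the DMSO+Sham mice, at least 8.57%, whereas the Sfrp1, Sfrp2 and Frzb shares overlapped. Sfrp5 itself was at only 0.07 to 0.28 FPKM in the DMSO+AB mice, nearly as low as Sfrp4. A share also falls when the sum rises, as it did in DMSO+AB mice 2 and 3.

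**Figure D2:**
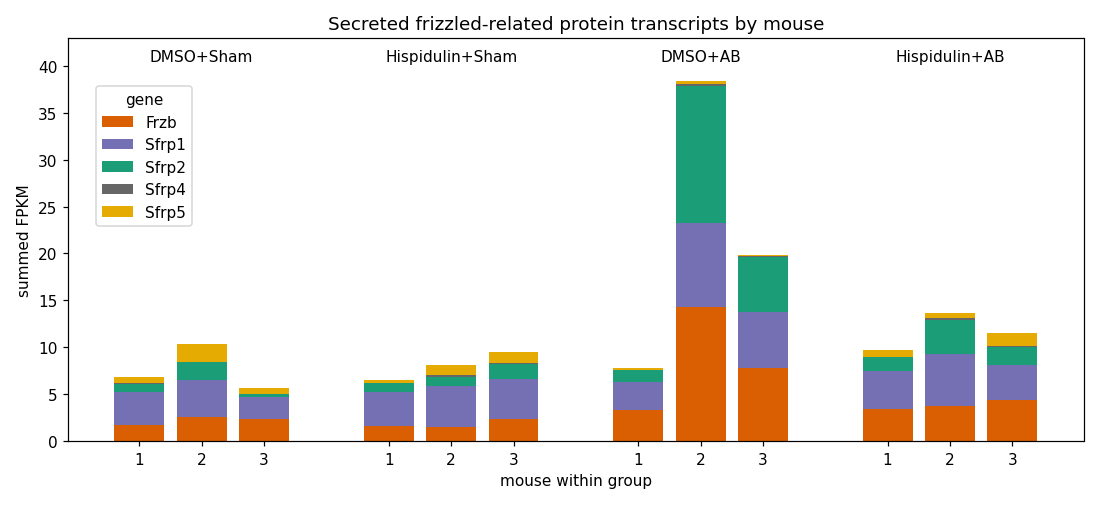
Summed FPKM (vertical axis) of Frzb, Sfrp1, Sfrp2, Sfrp4 and Sfrp5, stacked in each mouse of the 4 groups (horizontal axis). The tallest bar is DMSO+AB mouse 2 at 38.4, while DMSO+AB mouse 1 at 7.81 is within the range of the Sham mice.

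Dkk3 (Gene ID 50781), a divergent dickkopf protein that is abundant in atrial muscle, was highest in 2 libraries that were also high in atrial genes. Its FPKM was 1.00, 2.64 and 1.18 in DMSO+Sham, 0.59, 1.14 and 12.29 in Hispidulin+Sham, 1.34, 12.08 and 3.97 in DMSO+AB, and 2.07, 2.60 and 4.62 in Hispidulin+AB. In each group the mouse with the most Dkk3 was also the mouse with the most Myl7, and all groups overlapped. The order did not hold throughout, since DMSO+AB mouse 3 had 3.97 FPKM of Dkk3 with Myl7 at 0.24, the lowest of the 12 libraries. The sum of the other atrial markers measured (Myl7, Myl4, Sln and Stard10) ran from 39.6 to 62.2 FPKM in DMSO+Sham, from 24.4 to 817 in Hispidulin+Sham, from 15.6 to 184 in DMSO+AB and from 22.2 to 107 in Hispidulin+AB. Sln was listed at 0 in Hispidulin+Sham mice 1 and 2 and in DMSO+AB mouse 3, and of these 4 markers Stard10 alone passed the test after AB with DMSO, downwards. Over the 12 libraries the Pearson correlation of Dkk3 with Myl4 was 0.851 and with Myl7 0.801, and that of Frzb with Myl7 was 0.246. The Dkk3 difference between DMSO+AB and DMSO+Sham was 1.09 (SE 0.73, adjusted p = 0.442). Without the 3 libraries of highest Myl7, a choice made after seeing the data, the Dkk3 difference was 0.44, and without DMSO+AB mouse 1 it was 1.68. In this comparison that step leaves out DMSO+AB mouse 2 alone, and it also took Frzb to 0.97, Sfrp1 to 0.33 and Sfrp2 to 1.01. Dkk3 correlated with the activated fibroblast markers Postn and Comp at 0.662 and 0.649, and the part of atrial tissue or of fibroblasts in the Dkk3 values was not tested.

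Wnt5a (Gene ID 22418), the ligand among the 8 genes, was at 2.14, 2.14 and 1.22 FPKM in DMSO+Sham, 1.71, 1.78 and 1.87 in Hispidulin+Sham, 1.84, 1.32 and 1.58 in DMSO+AB, and 1.38, 1.99 and 1.49 in Hispidulin+AB. All 4 groups overlapped, with means between 1.58 ± 0.260 and 1.83 ± 0.531 (SD, n = 3). The difference between DMSO+AB and DMSO+Sham was -0.12, with a 95% interval of -0.46 to 0.22 (adjusted p = 0.701). Wnt5a was the gene of the 7 tested with a lower mean after AB.

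Fzd1 (Gene ID 14362), a seven-pass Wnt receptor, was the steadier of the 2 genes called. It was at 1.59, 2.15 and 1.64 FPKM in DMSO+Sham, 2.42, 2.17 and 2.32 in Hispidulin+Sham, 2.92, 4.27 and 4.46 in DMSO+AB, and 2.95, 2.63 and 2.92 in Hispidulin+AB. The means ran in the order DMSO+Sham (1.79 ± 0.310), Hispidulin+Sham (2.30 ± 0.126), Hispidulin+AB (2.83 ± 0.177) and DMSO+AB (3.88 ± 0.840, SD, n = 3), and in this order only the AB groups overlapped. The difference between DMSO+AB and DMSO+Sham was 0.80 (SE 0.14, adjusted p = 0.0117, exact permutation p = 0.1). Leaving out any DMSO+AB or DMSO+Sham mouse kept it between 0.71 and 0.95, with an adjusted p of 0.0563 without DMSO+AB mouse 2 and 0.0544 without DMSO+Sham mouse 1. Within series 5 the difference was 0.79 and within series 6 it was 0.78. For this gene the 1 low DMSO+AB mouse, at 2.92, was still above all 6 Sham mice.

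Fzd2 (Gene ID 57265), a receptor closely related to Fzd1, was at 1.41, 1.36 and 0.84 FPKM in DMSO+Sham, 1.13, 1.07 and 0.90 in Hispidulin+Sham, 0.91, 3.24 and 3.11 in DMSO+AB, and 1.37, 1.75 and 1.35 in Hispidulin+AB. DMSO+AB mice 2 and 3 stood above every other mouse, and mouse 1 lay within the Sham range. The difference under AB with DMSO was 0.56 (SE 0.25, adjusted p = 0.243, exact permutation p = 0.3), and it was 0.93 (adjusted p = 0.00451) without DMSO+AB mouse 1, 0.36 without mouse 2 and 0.38 without mouse 3. How reads of 50 bases that match more than 1 frizzled gene were shared out is not given in the sources used here.

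Across the comparison of DMSO+AB with DMSO+Sham, 6 of the 7 genes had a higher mean, and their median difference was 0.80 against -0.035 over all genes tested. The 2 genes called and 3 others (Sfrp1, Sfrp2 and Fzd2), 5 of the 7 in all, had an unadjusted p under 0.05, where 20.4% of all genes did, and 2 of the 7 had groups that did not overlap, where 17.9% did. Leaving out DMSO+AB mouse 1 gave 5 calls among the 7 (Frzb, Sfrp1, Sfrp2, Fzd1 and Fzd2) and 954 over all genes, and leaving out DMSO+AB mouse 2 or DMSO+Sham mouse 1 gave 0 of 7, with 97 and 91 over all genes. A fit to the 6 libraries compared alone also called 0 of 7, with 11 over all genes, and so did the fit without the 3 libraries of highest Myl7, with 20.

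**Figure D3:**
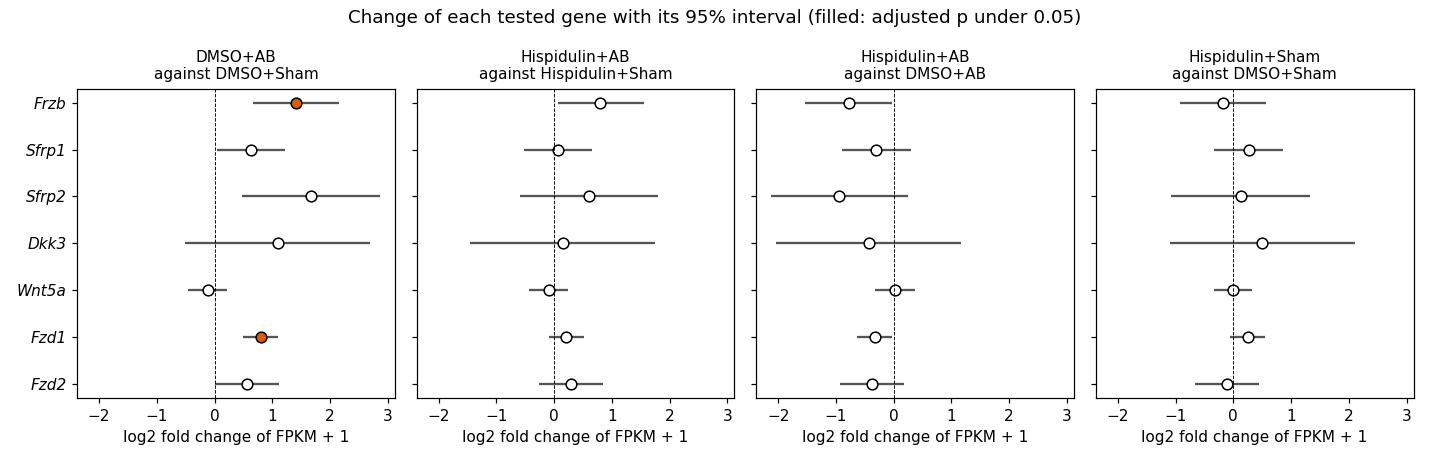
Difference in log2(FPKM + 1) (horizontal axis) with its 95% interval for the 7 genes tested, in 4 comparisons, with filled points for an adjusted p under 0.05. Frzb at 1.41 and Fzd1 at 0.80 in DMSO+AB against DMSO+Sham are the filled points, and the widest intervals are those of Dkk3.

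In mice given hispidulin, Frzb was again higher after AB, at 2.15 times the mean of Hispidulin+Sham, without overlap. The difference was 0.80 (95% interval 0.059 to 1.55, adjusted p = 0.659). Fzd1 (0.21, interval -0.089 to 0.52) and Fzd2 (0.29, interval -0.26 to 0.84) also had groups that did not overlap, whereas Sfrp1 (0.067), Sfrp2 (0.60) and Dkk3 (0.15) overlapped. The Dkk3 value was 1.1 without Hispidulin+Sham mouse 3 and -0.43 without Hispidulin+Sham mouse 1, and that of Sfrp2 was 0.34 without Hispidulin+AB mouse 2. Limma called 0 of the 7 genes and 0 of the 11664 (0.0%) at an adjusted p under 0.05, and no other tool was run. At an unadjusted p under 0.05 it was 1 of the 7, against 7.26% of all genes, and 3 of the 7 had groups without overlap, against 20.9%. With the replicate numbers as a block 17 of all genes were called, with library weights 209 and in a fit to the 6 libraries compared alone 49, each time with 0 of the 7. In the last of these fits Frzb had an adjusted p of 0.0542.

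Between the banded groups the means of 6 of the 7 genes were lower with hispidulin. Frzb was 0.455 times, Sfrp2 0.327 times, Fzd1 0.730 times and Fzd2 0.616 times the DMSO+AB mean, and for each of these genes the groups overlapped because DMSO+AB mouse 1 lay at or below the Hispidulin+AB values or among them. The differences were -0.78 for Frzb (interval -1.53 to -0.038), -0.33 for Fzd1 (interval -0.64 to -0.032) and -0.94 for Sfrp2 (interval -2.13 to 0.25), each with an adjusted p of 0.996. That of Wnt5a was 0.02 (interval -0.32 to 0.36). Limma called 0 of the 7 and 0.0% of all genes. The count at an unadjusted p under 0.05 was 2 of the 7, against 3.1% of all genes, and 0 of the 7 had groups without overlap, against 7.88%. Without DMSO+AB mouse 1 the difference was -1.26 for Frzb (adjusted p = 0.0677) and -1.67 for Sfrp2, and without DMSO+AB mouse 2 it was -0.34 for Frzb and -0.28 for Sfrp2. Within series 5 the Frzb difference was -0.71 and within series 6 it was -0.82.

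In Sham mice, hispidulin and DMSO differed in no gene of the 7 by limma, which called 0.0% of all genes. None of the 7 had an unadjusted p under 0.05, against 2.46% of all genes. The differences ran from -0.18 for Frzb (interval -0.92 to 0.57) to 0.50 for Dkk3 (interval -1.10 to 2.10), the latter set by Hispidulin+Sham mouse 3, without which it was -0.45. Fzd1 was higher in all 3 Hispidulin+Sham mice than in any DMSO+Sham mouse, a difference of 0.25 (interval -0.056 to 0.55), and was the 1 gene of the 7 without overlap, against 5.6% of all genes.

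The interaction term asked whether the change under AB differed with the drug. It was -0.58 for Fzd1 (interval -1.01 to -0.15), -0.60 for Frzb (interval -1.66 to 0.45), -1.07 for Sfrp2 (interval -2.76 to 0.62) and 0.026 for Wnt5a (interval -0.45 to 0.50), all with an adjusted p of 1. Without DMSO+AB mouse 1 it was -1.09 for Frzb and -1.8 for Sfrp2, and without DMSO+AB mouse 2 it was -0.16 for Frzb and -0.40 for Sfrp2. Limma called 0 of the 7 and 0.0% of all genes, and 1 of the 7, Fzd1, had an unadjusted p under 0.05, against 2.48% of all genes. The changes under AB with DMSO and with hispidulin were therefore not shown to differ for any of the 7.

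Frzb, Sfrp1, Sfrp2, Fzd1 and Fzd2 varied together from mouse to mouse. Over the 12 libraries the Pearson correlation of log2(FPKM + 1) was 0.923 between Frzb and Sfrp2, 0.934 between Sfrp1 and Sfrp2, 0.911 between Sfrp2 and Fzd2, 0.873 between Frzb and Fzd1 and 0.775 between Fzd1 and Fzd2. The points share the 4 groups and the within-group spread, so these values describe the libraries. Wnt5a went with none of them, at -0.468 with Frzb and -0.19 with Sfrp2. In each of the 5 genes DMSO+AB mouse 1 was the lowest of its group.

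Markers of activated fibroblasts moved in the same libraries. The summed FPKM of the 8 markers listed (Postn, Cthrc1, Fap, Comp, Cilp, Meox1, Thbs4 and Ltbp2) ran from 14.4 to 28.6 in DMSO+Sham, from 16.2 to 28.7 in Hispidulin+Sham, from 56.5 to 440 in DMSO+AB and from 45.4 to 101 in Hispidulin+AB. Within DMSO+AB the order of the mice was the same as for Frzb, Sfrp1 and Sfrp2, with sums of 56.5, 440 and 244 in mice 1, 2 and 3. After AB with DMSO 5 of the 7 tested rose and none fell, where 5.21% of all genes were called.

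All 10 general fibroblast markers had higher means after AB with DMSO, with a median difference of 0.80. Of the 10, 7 had an unadjusted p under 0.05, where 20.4% of all genes did. Their sum ran from 878 to 1029 FPKM in DMSO+Sham and was 973, 1556 and 1517 in the 3 DMSO+AB mice. Called were 3 of the 10 (Col1a1, Col1a2 and Mfap5), where 5.21% of all genes were. Summed smooth muscle markers ran from 1021 to 1302 FPKM in DMSO+Sham and from 1482 to 2057 in DMSO+AB, summed endothelial markers from 388 to 402 and from 435 to 462, and summed pericyte markers from 215 to 243 and from 161 to 235. Of the smooth muscle markers 1 of 6 rose (Des), and no endothelial or pericyte marker was called, against the same 5.21% of all genes. At an unadjusted p under 0.05 the counts were 2 of 6 smooth muscle, 1 of 8 endothelial and 3 of 5 pericyte markers, against 20.4%. Of 10 cardiomyocyte markers 2 fell (Ryr2 and Pln) and 5 had an unadjusted p under 0.05, against the same 5.21% and 20.4% of all genes. Their median difference was -0.20, while their sums overlapped (50900 to 71172 FPKM in DMSO+Sham, 60519 to 64789 in DMSO+AB). Summed macrophage markers also overlapped (127 to 305 and 172 to 252 FPKM), with 0 of 8 called. The part of these cell types in the Frzb and Fzd1 differences was not tested.

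**Figure D4:**
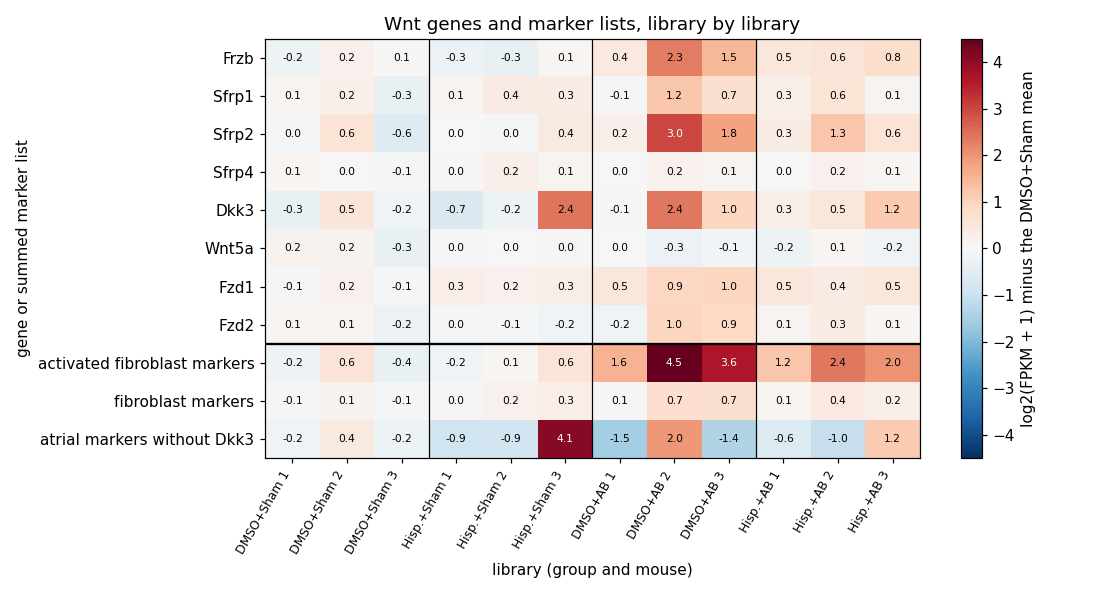
Heat map of log2(FPKM + 1) minus the DMSO+Sham mean for the 8 genes and for 3 summed marker lists (rows) in each of the 12 libraries (columns), with each cell's value printed. Frzb and the activated fibroblast markers are highest in DMSO+AB mouse 2, and Dkk3 is high in Hispidulin+Sham mouse 3 and DMSO+AB mouse 2, as are the atrial markers.

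The rest of the pathway was measured through 104 other genes, of which 101 had a row and 58 passed the filter. After AB with DMSO 3 of the 58 rose and none fell, that is 5.17% against the 5.21% of all genes, and their median difference was 0.011. In the other comparisons none of the 58 was called. The 3 were Ccn5, a matricellular protein and Wnt target, which rose by 1.99 (SE 0.52, adjusted p = 0.0494), Dact1, an inhibitor that binds dishevelled, by 0.79 (adjusted p = 0.0395), and Kremen1, a receptor of dickkopf proteins, by 0.71 (adjusted p = 0.0111). Ccn5 was at 5.28, 2.79 and 6.14 FPKM in DMSO+Sham and at 6.44, 41.44 and 32.76 in DMSO+AB, so its lowest AB mouse was again mouse 1. Kremen1 was between 33.49 and 37.15 FPKM in DMSO+Sham and between 50.99 and 69.96 in DMSO+AB, and there mouse 1 was not the lowest.

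Among secreted modulators, 6 of the 19 listed passed the filter, and 1 of these, Frzb, was called, against the same 5.21% of all genes. Of the 5 not called, Sfrp1, Sfrp2 and Dkk3 had higher means after AB, as given above, and Wif1 and Sfrp5 had lower means. Wif1, which binds Wnt ligands directly, was at 1.88, 4.25 and 2.2 FPKM in DMSO+Sham and 1.56, 1.44 and 0.59 in DMSO+AB, a difference of -0.76 (adjusted p = 0.151). Sfrp5 was at 0.58, 1.84 and 0.60 FPKM in DMSO+Sham and 0.21, 0.28 and 0.07 in DMSO+AB, a difference of -0.71 (adjusted p = 0.159). For both genes all DMSO+AB mice were below all DMSO+Sham mice, and 17.9% of all genes had groups that did not overlap in this comparison. No fall was seen after AB with hispidulin, where the differences were 0.37 for Wif1 (adjusted p = 0.862) and 0.047 for Sfrp5 (adjusted p = 0.986). Between the banded groups Wif1 was higher with hispidulin by 0.72 and Sfrp5 by 0.62, each with an adjusted p of 0.996. Dkk2 was at most 0.13 FPKM in any library.

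Of the receptors, 13 of 19 passed the filter and 1, Fzd1, was called, where 5.21% of all genes were. Fzd4, a receptor of the endothelium, was the most abundant frizzled by group mean, though not in DMSO+AB mouse 2. It held 42.9% ± 4.89 of the summed FPKM of the 10 frizzled genes in DMSO+Sham and 31.1% ± 12.2 in DMSO+AB (SD, n = 3). Its difference was -0.42 (adjusted p = 0.337). Fzd1 made up 6.00% ± 0.75 of that sum in DMSO+Sham and 12.6% ± 3.08 in DMSO+AB, and with hispidulin it made up 7.21% ± 0.931 in Sham and 9.21% ± 0.333 in banded mice. Fzd2 made up 4.03% ± 1.00 in DMSO+Sham and 7.9% ± 4.5 in DMSO+AB. The sum itself was 29.8 ± 1.37 FPKM in DMSO+Sham and 31.1 ± 2.59 in DMSO+AB. Fzd7 (0.30, adjusted p = 0.383) and the co-receptors Lrp5 (0.12, adjusted p = 0.703) and Lrp6 (-0.15, adjusted p = 0.642) did not pass, and Ror2, a receptor of Wnt5a, was at most 0.61 FPKM.

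Ligands were scarce. Of 19 listed, 16 had a row and 4 passed the filter (Wnt5a, Wnt5b, Wnt9a and Wnt11), with none called; Wnt3, Wnt3a and Wnt8a were not analysed here. Among the beta-catenin targets 7 of 15 listed passed the filter. After AB with DMSO 2 of these 7 rose (Ccn5 and Dact1), where 5.21% of all genes were called, 4 of the 7 had an unadjusted p under 0.05, where 20.4% did, and their median difference was 0.64. Axin2 was between 0.92 and 1.87 FPKM in all 12 libraries (difference -0.13, adjusted p = 0.667), Ccnd1 differed by 0.62 (adjusted p = 0.221), and Lef1, Nkd1 and Ccn4, under 1 FPKM in every library, were not tested. None of the 18 intracellular cascade genes tested and none of the 11 planar cell polarity genes tested was called after AB with DMSO, with median differences of -0.047 and 0.046.

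**Figure D5:**
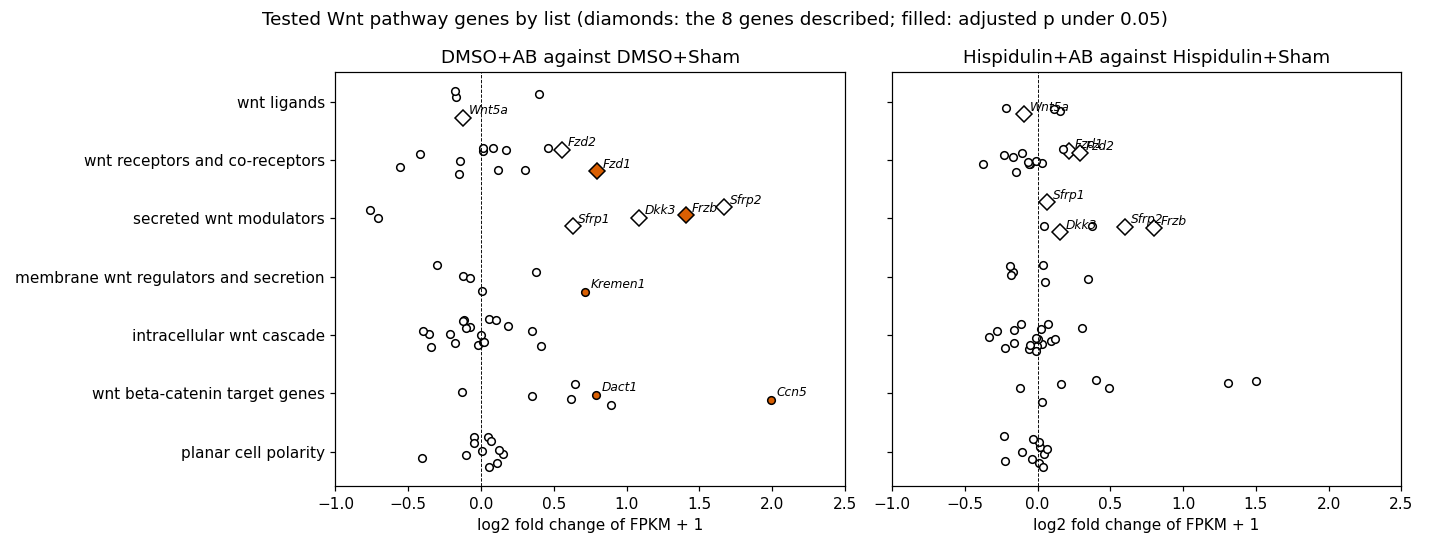
Difference in log2(FPKM + 1) (horizontal axis) of every Wnt pathway gene tested, by list (vertical axis, scattered within a list), for AB with DMSO and AB with hispidulin. Diamonds are genes of the 8 described here and filled symbols have an adjusted p under 0.05; these are Frzb, Fzd1, Ccn5, Dact1 and Kremen1, and they are filled for DMSO only.

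For each gene the 3 other genes of most similar pattern were taken by Pearson correlation of log2(FPKM + 1) over the 12 libraries, out of all genes tested. For Frzb they were Iah1 (0.975), Ltbp2 (0.971) and Panx1 (0.966). Those of Sfrp1 were Angptl7 (0.962), Mxra8 (0.943) and Cox8a (0.937), and those of Sfrp2 were Htra4 (0.968), P3h3 (0.965) and Fmod (0.963). Fzd1 was most like Spsb3 (0.975), Ehd4 (0.973) and Cox19 (0.968), and the genes given for Fzd2 are Azin2 (0.961) and Banf1 (0.941). Lower values were reached for Dkk3, with Ptpra (0.870), Umps (0.869) and Stard3nl (0.855), for Wnt5a, with Gprc5c (0.908), Nudt6 (0.877) and Rccd1 (0.874), and for Sfrp4, with Ppcs (0.890), Aldh1a1 (0.886) and Rab29 (0.870). With 12 libraries and all tested genes as candidates the best match of any gene is high, and after each group's mean was taken away the values of the genes named ran from 0.838 to 0.959.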

How the data were processed

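Polyadenylated RNA from left ventricular muscle of 12 mice (4 groups of 3) was read as single-end 50-base reads on the BGISEQ-500 platform. The values are FPKM as deposited by the authors, rounded to 0.01, for 18079 genes by NCBI Gene ID, of which 99.3% matched a symbol. The submitters' processing notes name HISAT2 2.0.4, Bowtie2 2.2.5, RSEM 1.2.12 and DESeq2 1.4.5, with no roles. The genome build and annotation are not given in the sources used here. FPKM sums per library ran from 535235 to 567027. Whole reads could not be recovered: 16.8% of ratios between low values lay within 0.1 of a whole number, where 20% would by even spread, so depth is unknown.

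FPKM + 1 was log2-transformed, genes with at least 1 FPKM in at least 3 libraries were kept (11664), and limma 3.58.1 (R 4.3.3) was fitted to all 12 libraries (mean-variance trend on; two-sided tests), p-values being adjusted by Benjamini-Hochberg and called at 0.05. The error had 8 degrees of freedom. Exact permutation tests used scipy in Python.

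The genes described and the gene lists were chosen with earlier results of these data known. Genes outside the 8 were named by a rule: Wnt pathway genes called in DMSO+AB against DMSO+Sham (at most 10), 13 genes by role, and for each of the 8 the 3 genes most alike. A gene that the last rule names is not reported here. Fibroblast, atrial and ventricular genes given with values (Cilp, Postn, Comp, Myl7, Myl4, Sln, Stard10, Myl2) were picked after their values were seen. Alternatives varied the value added (0.1), the filter, scaling, trend, weights, covariates, libraries and threshold.

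Replicate numbers name different mice. Deviations of same-numbered libraries from their group means correlated at 0.147 to 0.228 between Hispidulin+AB and Hispidulin+Sham and at 0.126 to 0.33 between the Sham groups, and every library there matched its own number best, so a block on the number was fitted; the labels give no reason for such pairing. For the other comparisons they did not pair (-0.198 to -0.0239 for DMSO+AB with DMSO+Sham, -0.183 to 0.3 between the AB groups). Nothing in the labels says whether mice shared a litter or an operation day.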

Additional observations from a re-analysis of the deposited data

Results flagged for a closer look

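Sfrp1 and Fzd1 showed hispidulin differences of opposite direction in Sham and in banded hearts, with every hispidulin mouse on the same side of the DMSO mean. For Fzd1 the difference on the log2(FPKM + 1) scale was 0.25 in Sham mice and -0.33 after AB. For Sfrp1 it was 0.27 in Sham mice and -0.30 after AB, and the latter was 0.0074 without DMSO+AB mouse 2 and 0.11 without the 3 libraries of highest Myl7, so the opposite direction rested on that mouse. The interaction of the limma fit tests this difference directly. It was -0.58 for Fzd1 (95% interval -1.01 to -0.15) and -0.56 for Sfrp1 (95% interval -1.4 to 0.28), each with an adjusted p of 1, so neither passed the test over all genes.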

How the results depend on the processing

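Of the 7 genes tested, 2 were called in DMSO+AB against DMSO+Sham. The count was also 2 with 0.1 added in place of 1, under median-of-ratios scaling, under quantile normalization, with no trend and with the replicate block, and 3 with library weights. It was 1 with no filter and 1 when the series digit of the animal number was a covariate (Fzd1 in both), and 0 at a minimum of 5 FPKM (which left only Sfrp1 of the 7), 0 in a fit to the libraries compared alone, 0 at an FDR of 0.001 with a log2 ratio of 1, and 0 without the 3 libraries of highest Myl7 (added after seeing the data). Leaving out each mouse in turn gave 0 to 5. In the other comparisons and the interaction the count was 0 under every alternative run, the replicate block included. Over all genes the count for DMSO+AB against DMSO+Sham was 608, with 358 in the fit with no filter, 1423 with library weights, 142 with the series covariate, 640 with the replicate block, 11 in the fit to the libraries compared alone, and 91 to 1053 with a mouse left out. In this comparison the difference of each of the 7 genes kept its direction under every alternative in which the gene was tested. Adjusted p ran from 0.00121 to 0.212 for Frzb and from 0.0015 to 0.146 for Fzd1. Over all genes, Hispidulin+AB against Hispidulin+Sham gave 0 calls and up to 209 (library weights), and Hispidulin+AB against DMSO+AB gave 0 and up to 20 (without DMSO+AB replicate 1). Read depth is unknown, so no limit from counting can be given.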
